A study of Mus musculus with 24 samples.

Results

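Microglia of wild-type and CD14-deficient mice were compared after stimulation with the lower of the study's LPS doses. The comparison held 6 libraries, 3 of each genotype, at 0.1 ng/ml Re-LPS, a truncated lipopolysaccharide without O-antigen. The 6 untreated libraries, 3 of each genotype, served to compare the responses of the genotypes, so that 12 of the 24 libraries of the series are described. Members were taken by genotype and treatment as the labels give them, without use of measured values. Wild-type cells (WT) came from C57BL/6 mice and CD14-deficient cells (KO) from the strain B6.129S4-Cd14tm1Frm/J, whose name marks a targeted Cd14 allele of 129S4 origin on the B6 background. All were primary microglia, the macrophages of the brain, from mice of age p0. The stimulus lasted 3 h, and untreated cells carried the label of the same treatment period. The series describes 3 independent cell preparations for each condition. The other 12 libraries, 3 of each genotype at 10 ng/ml Re-LPS and 3 of each with fibronectin (100 µg/ml), entered the fit and its estimate of the spread. Those at 10 ng/ml are described for the comparison of doses, and those with fibronectin are not described.

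CD14 is a membrane-anchored protein that receives LPS from the serum protein LBP and passes it to the complex of TLR4 and MD-2. That complex signals from the cell surface through the adaptor MyD88 to NF-kB, which drives cytokine genes and its own inhibitors. From endosomes it signals through the adaptor TRIF to interferon beta, whose receptor acts through STAT and IRF factors on the interferon-stimulated genes. CD14 is known for making macrophages sensitive to small amounts of LPS and for the uptake of TLR4 into endosomes.

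The 12 libraries held 14973622 to 20258255 counts each, and 13294 genes of the 18919 in the table had enough counts to be tested. Levels are given as CPM, a gene's counts scaled to a common library size with TMM factors, for libraries 1, 2 and 3 in turn. A change is a log2 fold change between groups of 3 libraries each, or a difference between such changes. The value after the ± sign is the size of the change divided by the square root of its edgeR F statistic. It stands in for a standard error and is approximate. A gene is said to be called, to rise or to fall at an edgeR adjusted p under 0.05. The ribosomal precursor Rn45s made up 8.21% of counts in KO LPS library 2 and 3.62% in WT LPS library 3, against at most 0.785% in the other 10. Without the 3 libraries of the series rich in Rn45s, 1399 genes were called between the genotypes. In these bulk samples, fewer responding cells and less RNA per cell cannot be told apart.

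Cd14 itself lies on chromosome 18 at 36725067 to 36726798 on the minus strand (GRCm38). WT cells at LPS 0.1 ng/ml held 3119, 2224 and 935 CPM of its transcript. KO cells held 4.32, 5.07 and 2.14 CPM. The groups lay far apart (log2 difference -9.09 ± 0.66, adjusted p = 6.6e-07), and WT library 3 had the lowest WT level. Tlr4, the signalling receptor, stood at 93.5, 101 and 65.9 CPM in WT and 97.7, 77.2 and 102 CPM in KO cells, which overlap. Ly96, which encodes MD-2, stood at 9.76, 9.21 and 9.41 CPM and 8.20, 9.44 and 14.1 CPM, which overlap too. Neither gene was called. Tlr4 and Ly96 were not named by the rule for genes and are given because they form the receptor.

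Untreated cultures showed 1 called gene between the genotypes, Cd14, which is 0.00752% of the genes tested by edgeR. At an unadjusted p under 0.05 there were 130 genes. A block for the library number gave 19, DESeq2 called 2, and a fit of those 6 libraries alone called 0. No other member of the pathway lists described below was called before stimulation.

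At LPS 0.1 ng/ml the genotypes differed in 1237 genes, 9.30% of those tested, of which 842 (6.33%) were lower and 395 (2.97%) higher in KO cells. Of the 15 gene lists described below, those with most of their tested members lower in KO cells were interferon-stimulated genes, interferon and its factors, cytokines, chemokines, NF-kB genes and MHC class I genes. The 25 genes called higher and 280 called lower (0.188% and 2.11%) in the difference of responses, 305 in all (2.29%), show where LPS moved KO cells to another extent than WT cells. LPS alone raised 1323 genes (9.95%) and lowered 753 (5.66%) in WT cells. In KO cells it changed 97 (0.73%), raising 96 (0.722%) and lowering 1 (0.00752%), Slc46a3. Of the 96 genes that rose in KO cells 95 also rose in WT cells, which is 99.0% of the KO list and 7.18% of the WT list.

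These counts depended on the spread that the test used. Same-numbered libraries of 1 genotype deviated together, while the main fit took all 24 libraries as independent. When the library number entered as a block, 2507 genes differed at LPS 0.1 ng/ml (1445 lower and 1062 higher), 564 differed in response, 3152 responded in WT and 190 in KO cells. This block assumes an effect shared by same-numbered libraries of both genotypes. Across genotypes only number 1 stood apart, so the data bear out that assumption only in part, here and for the lists below. With a block nested in genotype, 1780 genes differed in response, 5517 responded in WT and 515 in KO cells. A fit of the 6 compared libraries alone called 179 genes at LPS 0.1 ng/ml, 169 lower and 10 higher, and 45 in the KO response. In that fit the lower genes were 3 of 15 for interferon and its factors, 4 of 24 cytokines, 4 of 21 chemokines, 3 of 28 NF-kB genes, 4 of 24 sensors, 4 of 19 MHC class I genes, 3 of 24 TLR4 signalling genes, 2 of 22 genes of nitric oxide and prostanoids and 2 of 12 MHC class II genes. With the library number within each genotype as a random effect in limma voom, 756 genes differed at LPS 0.1 ng/ml. That random effect does not assume an effect shared by both genotypes. Leaving out WT LPS library 1 or 2 reduced the 1237 genes to 604 or 648, and KO LPS library 3 to 781, while leaving out WT LPS library 3 raised them to 1934. Over library totals without scaling factors, which moved the median of all genes by 0.17 (log2), 624 genes were lower and 679 higher. The same scaling turned the WT response to 926 rises and 1597 falls.

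Interferon-stimulated genes had the lowest median of these lists. At LPS 0.1 ng/ml 41 of 48 tested members were lower in KO cells and 0 higher, with a median log2 difference of -3.24 against 0.02 over all genes. In 46 of the 48, every WT library lay above every KO library, against 1521 of all 13294 genes tested. WT cells raised 44 of the 48 (median 3.51) and KO cells raised 0 (median 0.45), with 33 called lower in the difference of responses.

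Several promoters of these genes carry the motifs of the 2 branches of the pathway, and those of 3 interferon-stimulated or interferon-inducible genes and of 2 genes that still rose in KO cells are shown as examples. Each sequence covers 250 bases up to the transcription start, 5′ to 3′ on the gene's strand, from the RefSeq promoter table (GRCm38.p6). Capitals mark matches on either strand to the core of the interferon-stimulated response element (GAAA, any 2 bases, GAAA) or to the NF-kB consensus motif.
Rsad2 (chr12:26456453-26456702, minus strand): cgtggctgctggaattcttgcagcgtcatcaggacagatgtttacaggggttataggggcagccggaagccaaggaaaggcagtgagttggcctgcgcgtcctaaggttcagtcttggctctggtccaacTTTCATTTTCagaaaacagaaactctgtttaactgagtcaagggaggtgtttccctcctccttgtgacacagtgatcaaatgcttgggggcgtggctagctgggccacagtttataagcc
Ifit1 (chr19:34640639-34640888, plus strand): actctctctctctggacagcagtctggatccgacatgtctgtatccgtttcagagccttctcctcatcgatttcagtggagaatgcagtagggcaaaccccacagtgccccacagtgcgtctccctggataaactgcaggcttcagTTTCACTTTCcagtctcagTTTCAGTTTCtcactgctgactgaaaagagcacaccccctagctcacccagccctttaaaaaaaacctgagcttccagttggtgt
Cxcl10 (chr5:92348890-92349139, minus strand): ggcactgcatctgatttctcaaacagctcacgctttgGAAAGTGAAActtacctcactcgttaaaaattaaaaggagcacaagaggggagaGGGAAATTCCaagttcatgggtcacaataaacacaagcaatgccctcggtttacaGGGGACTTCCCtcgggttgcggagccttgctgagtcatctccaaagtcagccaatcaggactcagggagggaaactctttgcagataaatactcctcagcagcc
Nfkbie (chr17:45555450-45555699, plus strand): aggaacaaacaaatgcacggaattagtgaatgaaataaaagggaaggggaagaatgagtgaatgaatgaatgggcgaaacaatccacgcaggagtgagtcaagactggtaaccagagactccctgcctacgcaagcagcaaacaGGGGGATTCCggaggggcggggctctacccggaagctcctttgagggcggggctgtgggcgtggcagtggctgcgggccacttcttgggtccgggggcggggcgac
Tlr2 (chr3:83841609-83841858, minus strand): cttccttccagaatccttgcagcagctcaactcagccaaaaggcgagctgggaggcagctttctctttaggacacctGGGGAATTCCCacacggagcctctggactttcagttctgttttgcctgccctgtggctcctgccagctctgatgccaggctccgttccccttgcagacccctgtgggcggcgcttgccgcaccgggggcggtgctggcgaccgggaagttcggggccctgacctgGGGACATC

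In these windows Rsad2 and Ifit1 held only the response element core, once and at 2 sites. Cxcl10 held the core and NF-kB matches, of which a pair overlaps in 1 run of capitals. Nfkbie and Tlr2 held NF-kB matches alone, those of Tlr2 with an overlapping pair and 1 match at the start site that runs past the printed end. Over the full windows of 250 bases before to 50 after the start, 23 of 36 interferon-stimulated genes with a promoter in the table held the core (63.9%) and 9 the NF-kB motif (25%). Among 25 of the 28 NF-kB genes with a promoter, 1 held the core (4%) and 14 the NF-kB motif (56%). Among 17 of the 24 cytokines with a promoter, 0 held the core and 7 the NF-kB motif (41.2%), and among 14 of the 21 chemokines 2 held the core (14.3%) and 5 the NF-kB motif (35.7%). Of all 32851 promoters in the table, 3.44% held the core and 8.46% the NF-kB motif, and of 9418 tested genes with a promoter 3.92% and 12.7%. Genes lower in KO cells at LPS 0.1 ng/ml, 596 of 842 with a promoter, held them in 10.2% and 17.3%. Genes that rose in KO cells, 79 of 96 with a promoter, held them in 2.53% and 29.1%. A match describes the letters of the sequence and not a bound site.

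Upstream of the list, Ifnb1 encodes interferon beta. It held 275 counts in the 3 WT LPS libraries together (9.57, 4.72 and 2.01 CPM) and 10 in the 3 KO ones (0.214, 0.246 and 0 CPM), a log2 difference of -5.05 ± 0.79 (adjusted p = 3.4e-04). Untreated WT cells held 3 counts, which makes the WT rise 104-fold with a 95% counting interval of 35.3 to 509. Untreated KO cells held 15 counts, and the highest untreated KO library lay above all KO libraries with LPS. The interval covers counting error only.

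Of 15 genes for interferon, its receptor and the IRF and STAT factors, 8 were lower in KO cells, 0 were higher and 6 were called in the difference of responses. None of the 15 rose in KO cells by edgeR, while 2 did with a block for the library number and 3 with the nested block or by DESeq2. Irf1, a transcription factor induced by interferon and by NF-kB, stood at 1037, 864 and 463 CPM in WT and 80.1, 85.0 and 48.7 CPM in KO cells. It differed by -3.47 ± 0.29 (adjusted p = 1.5e-06) and by -3.27 ± 0.39 in response, with no overlap between the groups. Stat2, a factor of the interferon-activated transcription complex, stood at 607, 587 and 542 CPM and 72.3, 115 and 63.7 CPM and differed by -2.79 ± 0.32, and by -2.92 ± 0.43 in response. The KO libraries of Stat2 with LPS overlapped the untreated ones, which held 67.6, 107 and 70.3 CPM. Irf7, the factor that amplifies interferon production, differed by -3.60 ± 0.67. In a fit of the 6 LPS libraries alone the calls of Ifnb1 (adjusted p = 0.0821) and Irf7 (adjusted p = 0.0513) ended. That of Ifnb1 also ended with the random effect in limma voom (adjusted p = 0.261).

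Rsad2, which encodes the antiviral enzyme viperin, stood at 2654, 4307 and 1182 CPM in WT and 41.5, 50.2 and 22.0 CPM in KO cells. Untreated KO cells held 21.6, 28.0 and 29.8 CPM, so KO library 3 with LPS lay inside the untreated range and libraries 1 and 2 above it. Its difference was -6.16 ± 0.55 (adjusted p = 2.5e-06) and that of the responses -6.29 ± 0.68 (adjusted p = 1.4e-04). Ifit1, which binds viral RNA, stood at 1329, 1405 and 619 CPM and 19.7, 30.0 and 9.52 CPM and differed by -5.82 ± 0.55, with -5.94 ± 0.69 in response. Mx1, an antiviral GTPase, stood at 1184, 1344 and 627 CPM and 21.3, 28.6 and 5.65 CPM and differed by -5.83 ± 0.71, with -5.81 ± 0.88 in response. For both, WT library 3 was the lowest of its group and KO library 3 the lowest of the KO group, and the groups stood far apart. Gbp5, a guanylate-binding protein of the interferon and inflammasome pathways, stood at 571, 525 and 163 CPM and 10.5, 11.6 and 4.88 CPM (-5.54 ± 0.49, and -5.44 ± 0.62 in response).

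The 7 members of the list that were not called lower include Bst2, which tethers virus particles to the cell. Bst2 stood at 228, 314 and 255 CPM in WT and 152, 200.4 and 97.2 CPM in KO cells, a difference of -0.83 ± 0.32 (adjusted p = 0.118). Ifitm3, which restricts virus entry, stood at 232, 248 and 169.6 CPM and 141, 101 and 18.0 CPM, with -1.32 ± 0.74 (adjusted p = 0.343). Oas2, a sensor of double-stranded RNA, stood at 64.2, 135 and 127 CPM and 13.9, 48.1 and 9.77 CPM, with -2.19 ± 0.83 (adjusted p = 0.113). In all 3 the WT libraries lay above the KO libraries, with KO library 3 the lowest. Oas2 was called lower with a block for the library number (adjusted p = 0.0155), by DESeq2 (0.0273) and with the random effect in limma voom (0.0164). Bst2 was called lower with that block (0.0279), and Ifitm3 in none of these runs.

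**Figure D1:**
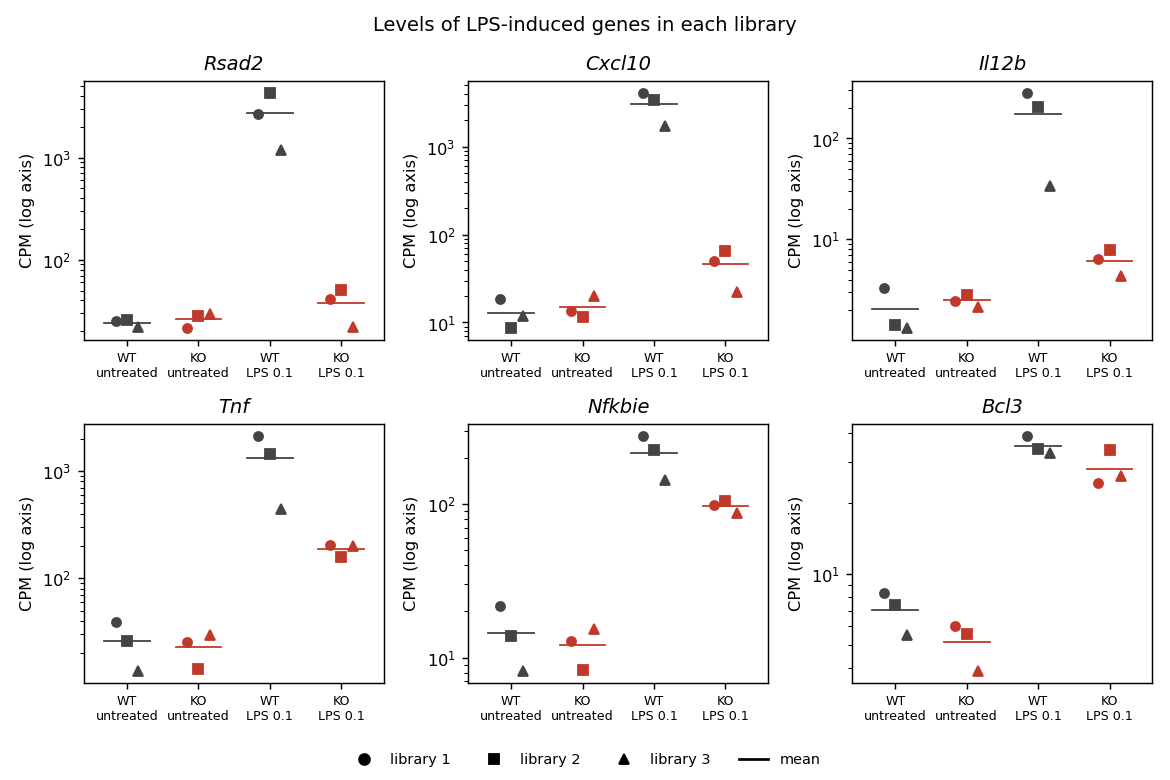
Levels (CPM, log axis) of 6 genes in each library of untreated and LPS-treated (0.1 ng/ml) WT and KO cells, with the mean of 3 libraries as a line. Rsad2, Cxcl10 and Il12b stay far below the WT libraries with LPS in KO cells, Tnf and Nfkbie rise in both genotypes to different heights, and the KO and WT points of Bcl3 at LPS overlap.

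Chemokines followed, with 15 of 21 tested members lower in KO cells, 0 higher and a median of -2.79, and with 9 called in the difference of responses. With the random effect in limma voom 7 of the 21 were lower. Cxcl10, which attracts T cells, held 4107, 3408 and 1723 CPM in WT and 49.6, 65.3 and 22.3 CPM in KO cells. All KO libraries with LPS lay above the untreated KO range of 13.5, 11.4 and 19.8 CPM, but the KO response of 1.62 ± 0.53 did not pass (adjusted p = 0.358). The genotypes differed by -6.07 ± 0.64 (adjusted p = 8.3e-06) and the responses by -6.27 ± 0.79 (adjusted p = 2.4e-04). Ccl5, another T cell attractant, held 402, 333 and 78.9 CPM and 14.4, 9.05 and 3.51 CPM (-4.91 ± 0.63, and -4.39 ± 0.81 in response). The T cell attractant Cxcl9 was lower (-4.88 ± 0.71), a call that ended with the random effect (adjusted p = 0.228).

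Cxcl1, which attracts neutrophils, held 56.6, 21.5 and 6.54 CPM in WT and 4.27, 3.84 and 5.24 CPM in KO cells. WT library 3 stood just above the highest KO library, so the groups were apart by a small margin. The difference of -2.66 ± 0.62 (adjusted p = 0.00966) lost its call without WT LPS library 1 (adjusted p = 0.114), with the random effect (adjusted p = 0.31) and in a fit of the 6 libraries alone (adjusted p = 0.169), as did Ccl5 in that fit (adjusted p = 0.0564). In the KO response Cxcl1 and Ccl4, a chemokine for monocytes and T cells, rose by edgeR, and 5 chemokines rose with a block for the library number and 6 with the nested block. Leaving out any 1 of the 6 KO libraries left 0 or 1 of them, and testing without the filter on low counts left 0.

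Of 24 cytokines tested 15 were lower in KO cells and 0 higher, with a median of -2.73, and 10 were called in the difference of responses. With the random effect in limma voom 7 of the 24 were lower, and in a fit of the compared groups alone 6 were called in the difference of responses. Il12b, the shared subunit of IL-12 and IL-23, held 283, 204 and 33.6 CPM in WT and 6.32, 7.82 and 4.33 CPM in KO cells. WT library 3 was far below the other WT libraries and above all KO libraries. The difference was -4.82 ± 0.65 (adjusted p = 7.3e-05) and that of the responses -5.12 ± 0.87 (adjusted p = 0.0021). Il6, a secreted inducer of the acute phase, held 38.9, 23.9 and 5.18 CPM and 1.20, 0.787 and 0.712 CPM (-4.63 ± 0.64, and -5.38 ± 0.98 in response). The KO libraries of Il6 overlapped the untreated KO libraries, at 0.675, 0.586 and 0.943 CPM. Il27, a subunit of the cytokine IL-27, held 52.5, 42.0 and 11.2 CPM and 1.92, 2.07 and 1.42 CPM (-4.28 ± 0.42, and -4.87 ± 0.61 in response). With the random effect the calls ended for Il6 (adjusted p = 0.282 between the genotypes and 0.265 in response) and Il27 (0.0534 and 0.0692).

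Tnf and Il1b, pro-inflammatory cytokines whose genes NF-kB drives directly, were the 2 cytokines that rose in KO cells by edgeR, while 3 rose and 1 fell with the nested block. Tnf held 2117, 1431 and 438 CPM in WT cells with LPS and 205, 157 and 199.6 CPM in KO cells, from 25.8, 14.3 and 29.4 CPM in untreated KO cells. The KO rise was 3.02 ± 0.46 (adjusted p = 0.00127), the genotype difference -2.83 ± 0.45 (adjusted p = 4.2e-04) and that of the responses -2.64 ± 0.61 (adjusted p = 0.024). All KO libraries with LPS lay above all untreated ones and below all WT libraries with LPS. Il1b held 1072, 498 and 187 CPM and 90.3, 107 and 84.6 CPM (-2.64 ± 0.43, and -2.47 ± 0.59 in response). KO libraries of both genes were close to each other while WT libraries spread by several fold. Leaving out single libraries ended the difference of responses for Tnf in 9 of 12 cases, all but WT untreated 1, WT LPS 3 and KO untreated 2 (adjusted p up to 0.101, without WT LPS library 1). For Il1b it also ended in 9 of 12, all but WT untreated 1 and WT LPS 2 and 3 (adjusted p up to 0.116, without WT LPS library 1). The fit of the 6 LPS libraries alone ended the genotype calls of Tnf (adjusted p = 0.0764), Il1b (0.117), Il12b (0.0597) and Il6 (0.0564). In such a fit of 12 libraries the differences of responses ended for Tnf (adjusted p = 0.157) and Il1b (0.164), and that of Il1b also by limma on the deposited values (0.054).

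The list of NF-kB genes, which includes the inhibitors that feed back on the pathway, was lower in KO cells in 23 of 28 members and higher in 0, with a median of -1.14. KO cells nevertheless raised 18 of the 28 (0.722% of all genes tested rose there), with a median response of 1.63 against 2.47 in WT cells, which raised 27. The difference of responses was called lower in 9, and in 23 with the block nested in genotype. It was called in 14 without the libraries rich in Rn45s, in 16 without WT LPS library 3, and in 5 without WT LPS library 1, WT LPS library 2 or WT untreated library 3. Without KO untreated library 2 the 18 rises in KO cells were 10. In fits of the compared groups alone they were 10 as well, and 3 genes were called in the difference of responses.

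**Figure D2:**
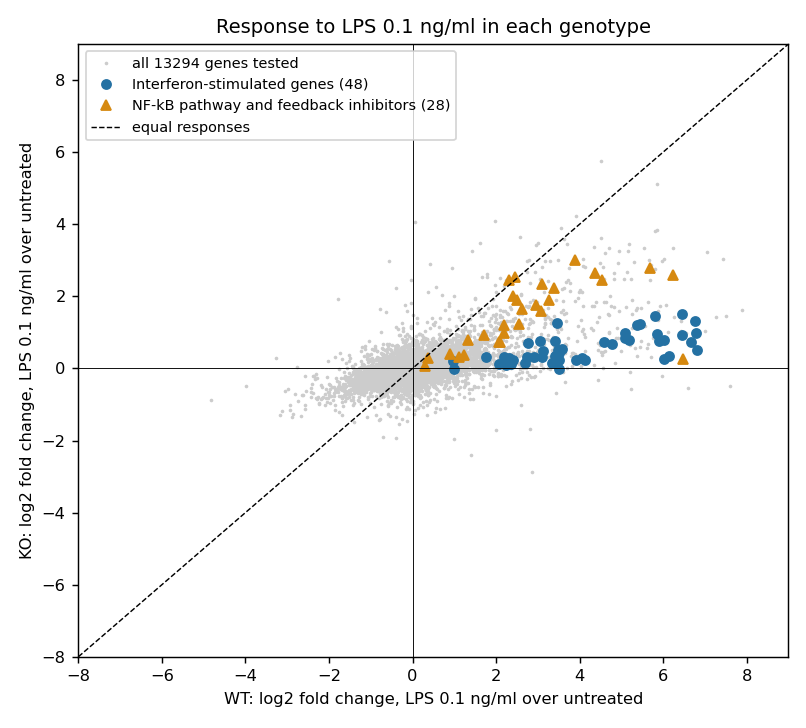
Log2 fold change of LPS 0.1 ng/ml over untreated cells in WT (horizontal axis) and KO cells (vertical axis) for the 13294 genes tested, with 48 interferon-stimulated genes as blue circles and 28 NF-kB genes as orange triangles. Both lists spread to the right, while on the vertical axis the interferon-stimulated genes have a median of 0.45 and the NF-kB genes of 1.63.

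Nfkbie, an inhibitor that holds NF-kB in the cytoplasm, held 277, 225 and 143 CPM in WT and 99.1, 105 and 87.8 CPM in KO cells with LPS, and 12.9, 8.28 and 15.2 CPM in untreated KO cells. It rose by 3.00 ± 0.30 in KO cells (adjusted p = 1.5e-05) and differed from WT cells by -1.14 ± 0.28 (adjusted p = 0.0144), a call that ended without WT LPS library 1 or 2 or KO LPS library 3 (adjusted p up to 0.104). Its difference of responses, -0.88 ± 0.40, did not pass (adjusted p = 0.449) and did with the nested block (adjusted p = 0.0344). Tnfaip2, an NF-kB target gene, held 2698, 2147 and 1094 CPM and 434, 464 and 410.0 CPM, from 76.5, 77.9 and 86.3 CPM in untreated KO cells. It rose by 2.44 ± 0.24 in KO cells, and differed by -2.18 ± 0.23 between the genotypes and by -2.09 ± 0.32 in response. The KO libraries of both genes lay between the untreated and the WT LPS libraries, without overlap.

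Icam1, an adhesion molecule for leukocytes, rose by 2.64 ± 0.31 in KO cells and differed by -2.20 ± 0.31 between the genotypes and by -1.72 ± 0.42 in response, the last a call that ended in 8 of 12 cases when a library was left out (adjusted p up to 0.131). Those 8 were all but WT untreated 1, WT LPS 3, KO untreated 3 and KO LPS 2. Socs3, which blocks cytokine receptors, was lower in KO cells (-3.35 ± 0.44). Socs1, an inhibitor of interferon and cytokine receptors, held 84.1, 77.0 and 17.3 CPM in WT and 1.24, 0.738 and 0.712 CPM in KO cells with LPS, and 0.627, 0.550 and 1.11 CPM in untreated KO cells. It differed by -6.03 ± 0.70 (adjusted p = 1.9e-05) and by -6.20 ± 0.98 in response, and its KO libraries with LPS overlapped the untreated ones, unlike those of Nfkbie and Tnfaip2. The fit of the 6 LPS libraries alone ended the genotype calls of Nfkbie (adjusted p = 0.0975), Icam1 (0.0554) and Socs3 (0.0745). Fits of the compared groups alone also ended the KO rise of Icam1 (0.0584) and its difference of responses (0.182). The random effect in limma voom ended the calls of Socs1 (adjusted p = 0.188 between the genotypes and 0.221 in response).

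A few genes reached levels in KO cells that were not called different from WT cells. Bcl3, an atypical IkB protein that binds NF-kB in the nucleus, held 38.7, 34.2 and 32.7 CPM in WT and 24.5, 33.7 and 26.2 CPM in KO cells with LPS, which overlap. It had risen by 2.44 ± 0.27 in KO cells (adjusted p = 3.3e-05) from 6.03, 5.57 and 3.88 CPM. Ralgds, an exchange factor for Ral GTPases, held 90.5, 86.6 and 60.8 CPM and 53.5, 54.5 and 68.3 CPM with LPS, which overlap, after a rise of 2.67 ± 0.23 in KO cells (adjusted p = 4.3e-06). Tlr2, the receptor for bacterial lipopeptides, held 2387, 2004 and 1388 CPM and 1051, 1153 and 879 CPM after a KO rise of 2.81 ± 0.30 (adjusted p = 3.1e-05). All WT libraries of Tlr2 lay above all KO libraries, with a difference of -0.91 ± 0.29 at an adjusted p of 0.0542, and of 0.00468 with a block for the library number. Uncalled differences do not show equal levels.

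**Figure D3:**
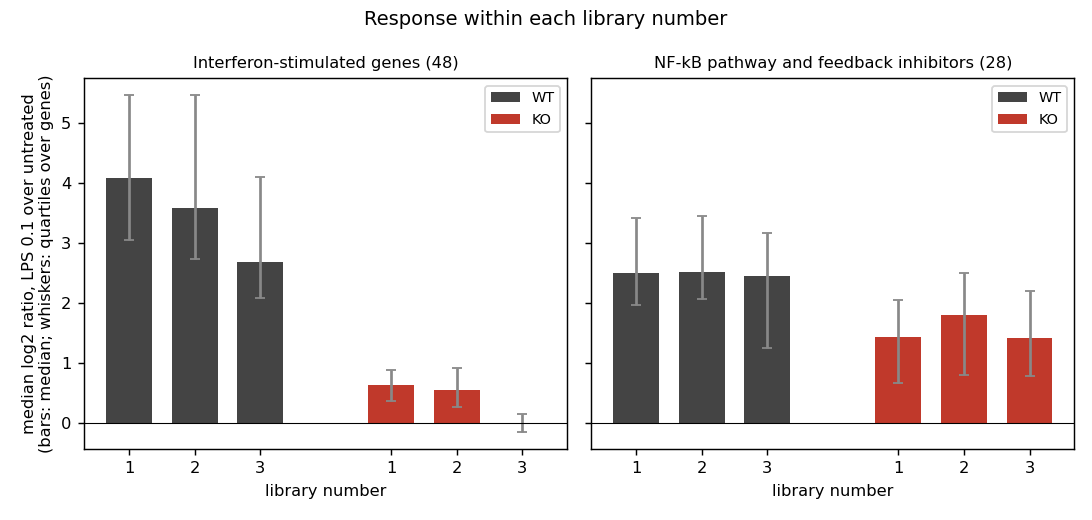
Median log2 ratio of LPS 0.1 ng/ml over the untreated library of the same number, with 0.5 CPM added to both, for interferon-stimulated genes (left) and NF-kB genes (right), with whiskers at the quartiles over genes. The interferon-stimulated median falls from 4.09, 3.58 and 2.68 in WT to 0.63, 0.55 and -0.01 in KO cells, and the NF-kB median from 2.49, 2.52 and 2.44 to 1.42, 1.79 and 1.41.

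Responses within library numbers are given for both lists, as a description without a test. All 48 interferon-stimulated genes were higher with LPS than in the untreated library of the same number in KO library 1, 45 in library 2 and 24 in library 3, with medians of 0.63, 0.55 and -0.01 (log2, 0.5 CPM added). The NF-kB genes were higher in 28, 28 and 26 of 28 in the same libraries, with medians of 1.42, 1.79 and 1.41. Over all genes tested the medians were 0.004, 0.006 and -0.005 in KO and -0.015, -0.006 and -0.001 in WT cells. In KO library 3 the median was thus near 0 for the first list and above 1 for the second. In WT cells all 48 and all 28 were higher in each of the 3 numbers, with medians of 4.09, 3.58 and 2.68 for the first list and 2.49, 2.52 and 2.44 for the second. With libraries numbered 1 and 2 only, 5 of the 48 interferon-stimulated genes were called up in KO cells, and 1 was with the nested block.

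Other sensors of microbes were lower in KO cells in 9 of 24 tested genes, 0 were higher, and 15 were lower with a block for the library number. Tlr3, which detects double-stranded RNA, held 90.9, 123 and 76.6 CPM in WT and 17.7, 23.2 and 23.4 CPM in KO cells, the latter overlapping the untreated KO libraries at 16.7, 19.8 and 24.1 CPM. It differed by -2.18 ± 0.33 and by -2.19 ± 0.46 in response. Nod2, a sensor of bacterial cell wall fragments, differed by -2.91 ± 0.36 and by -3.19 ± 0.49 in response. Nlrp3, which nucleates an inflammasome, held 1352, 1064 and 451 CPM and 215, 206 and 213 CPM. It rose in KO cells by 1.87 ± 0.27 (adjusted p = 8.6e-04) and differed by -2.18 ± 0.27 and by -2.03 ± 0.38 in response. KO cells raised 4 of the 24 genes (8 with the nested block), among them Tlr2 and Nlrp3. In fits of the compared groups alone the genotype calls of Nod2 (adjusted p = 0.0509) and Nlrp3 (0.0614) ended, as did the difference of responses of Nlrp3 (0.0622).

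Of 24 genes for the TLR4 complex and its signalling, 5 were lower in KO cells, 0 were higher, and 8 were lower with a block for the library number. Apart from Cd14, the largest were Ikbke, a kinase of the interferon branch (-1.71 ± 0.32), and Myd88, the adaptor of the NF-kB branch. Myd88 held 259, 229 and 157 CPM in WT and 80.8, 72.9 and 68.4 CPM in KO cells with LPS, from 52.4, 48.7 and 54.7 CPM in untreated KO cells. It differed by -1.54 ± 0.19 (adjusted p = 2.4e-05) and by -1.53 ± 0.26 in response (adjusted p = 0.00206), without overlap between the groups. Without WT LPS library 1 the 5 genes of the list were 3.

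Genes for nitric oxide, prostanoids and immunometabolism were lower in KO cells in 7 of 22 cases, and 0 were higher. Ptgs2, the inducible cyclooxygenase, held 261, 188 and 33.4 CPM in WT and 13.8, 14.1 and 11.4 CPM in KO cells, with WT library 3 again the lowest of its group. It differed by -3.62 ± 0.48 and by -3.74 ± 0.65 in response. Nos2, the inducible nitric oxide synthase, held 18.8, 20.7 and 6.79 CPM and 0.684, 0.738 and 0.661 CPM and differed by -4.46 ± 0.59. The KO response held 3 called members, 5 with a block for the library number, and 1 without KO untreated library 2. In fits of the compared groups alone the calls of Ptgs2 ended (adjusted p = 0.0875 between the genotypes and 0.0525 in response). With the random effect in limma voom its difference of responses (0.0767) and the genotype call of Nos2 (0.28) ended.

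Presentation of peptides by MHC class I was lower in KO cells in 12 of 19 genes and higher in 0, with a median of -0.90. Tap1, a subunit of the peptide transporter, held 311, 296 and 204 CPM in WT and 52.3, 65.8 and 43.3 CPM in KO cells, and 45.6, 59.4 and 41.0 CPM in untreated KO cells. It differed by -2.33 ± 0.26 and by -2.33 ± 0.36 in response, and its KO level with LPS overlapped the untreated one. The immunoproteasome subunit gene Psmb9 was lower (-1.47 ± 0.29), a call that ended in a fit of the 6 LPS libraries alone (adjusted p = 0.0527). No gene of the list rose in KO cells. The difference of responses was called in 6 genes, in 10 with a block for the library number, in 15 with the nested block, and in 3 without any 1 of 6 libraries, namely WT untreated 3, WT LPS 1 or 2, KO untreated 1 or 2 and KO LPS 3.

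Genes for MHC class II and costimulation were lower in KO cells in 5 of 12 cases and higher in 0. Cd274, the inhibitory ligand PD-L1, held 303, 348 and 138 CPM in WT and 25.9, 26.5 and 32.5 CPM in KO cells, and 20.3, 19.1 and 27.8 CPM in untreated KO cells. It differed by -3.22 ± 0.31 and by -3.47 ± 0.41 in response. Cd69, an early activation marker, held 880.3, 923 and 246 CPM and 28.2, 31.6 and 33.0 CPM, which is above the untreated KO level of 2.99, 3.01 and 5.49 CPM in each library. It differed by -4.46 ± 0.42 and by -4.41 ± 0.56 in response. Cd40, a receptor for T cell help, was lower (-4.52 ± 0.54), a call that ended in a fit of the 6 LPS libraries alone (adjusted p = 0.0513).

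The named genes that were higher in KO than in WT cells at LPS 0.1 ng/ml all held lower levels in LPS-treated than in untreated WT libraries, without overlap. The rule for the largest rises selects on the genotype difference at LPS and on the difference of responses. A fall in WT cells is thus partly built into the choice of these genes, while 5.66% of all genes tested fell there. Lpar6, a receptor for lysophosphatidic acid, held 133, 98.5 and 136 CPM in untreated and 9.70, 10.1 and 28.5 CPM in LPS-treated WT cells. KO cells held 143, 168 and 197 CPM and 67.7, 82.1 and 102 CPM, so that every KO library with LPS lay below the untreated ones and above the WT libraries with LPS. The difference at LPS 0.1 ng/ml was 2.38 ± 0.31 (adjusted p = 5.7e-05) and that of the responses 1.91 ± 0.42 (adjusted p = 0.018). Gpr183, the oxysterol receptor that guides immune cells, held 10.6, 7.45 and 21.2 CPM in WT and 60.1, 46.4 and 62.2 CPM in KO cells with LPS, and 77.6, 50.5 and 74.0 CPM in untreated KO cells. It differed by 2.10 ± 0.32 and by 2.03 ± 0.43 in response, and in both genes WT library 3 was the highest of the WT group.

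Cxcr4, the receptor for the chemokine CXCL12, held 10.0, 10.5 and 56.2 CPM in WT and 98.6, 143 and 268 CPM in KO cells. The groups did not overlap, as the naming rule required, but spread widely. The difference of 2.73 ± 0.71 (adjusted p = 0.0206) ended without WT LPS library 1 or 2 or KO LPS library 3 (adjusted p up to 0.116). Mnt, a repressor that pairs with MAX, was higher by 2.13 ± 0.38. It held 6.17, 7.05 and 19.5 CPM in WT and 48.5, 37.9 and 57.4 CPM in KO cells. Per1, a clock gene, was higher by 1.25 ± 0.19 (1.10 ± 0.26 in response) and the ETS factor gene Fli1 by 0.81 ± 0.15. The zinc finger gene Zfp874a held 4.09, 3.92 and 4.53 CPM and 10.7, 9.30 and 11.6 CPM, the latter overlapping the untreated KO libraries at 11.9, 9.05 and 10.6 CPM, and differed by 1.33 ± 0.20 (1.29 ± 0.27 in response).

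**Figure D4:**
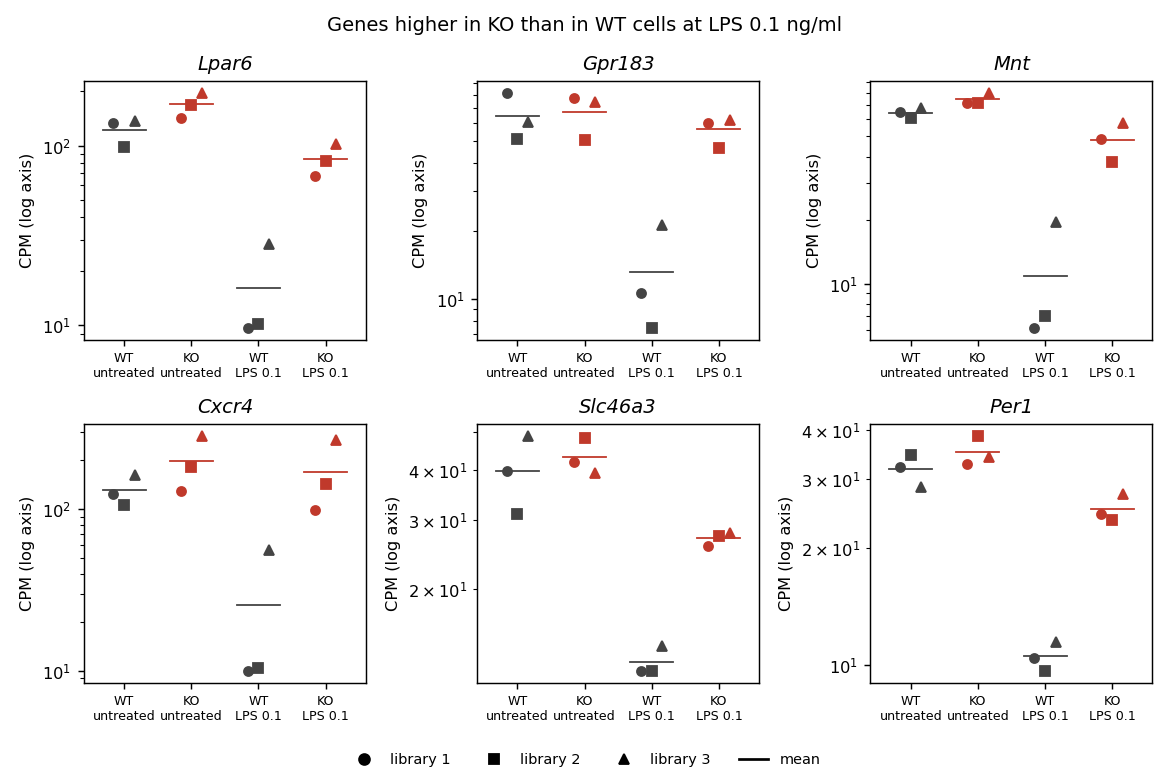
Levels (CPM, log axis) in each library of 6 genes that were higher in KO than in WT cells at LPS 0.1 ng/ml, with the mean of 3 libraries as a line. LPS lowers all 6 in WT cells. The 3 KO libraries with LPS lie above the 3 WT libraries in each panel, a separation that the naming rule for the largest rises required.

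Slc46a3, a lysosomal transporter gene, was the one gene that fell in KO cells by edgeR. It held 12.4, 12.4 and 14.3 CPM in WT and 25.8, 27.3 and 27.7 CPM in KO cells with LPS, from 42.0, 48.3 and 39.5 CPM in untreated KO cells. Its KO response was -0.68 ± 0.15 (adjusted p = 0.0272), a call that ended in 5 of 6 cases when a library was left out, all but KO untreated library 3 (adjusted p up to 0.2). The genotypes differed by 1.04 ± 0.15 and the responses by 0.93 ± 0.21. The calls in the difference of responses ended when single libraries were left out for Lpar6 (adjusted p up to 0.0585), Gpr183 (0.0564), Slc46a3 (0.0643), Zfp874a (0.0501) and Per1 (0.108), namely WT LPS library 1 for Gpr183, library 2 for Zfp874a and either for the others. For Lpar6 WT untreated library 3, KO untreated library 1 and KO LPS library 3 also ended it, for Slc46a3 the untreated libraries 3 of both genotypes, and for Per1 WT untreated libraries 1 and 2, KO untreated libraries 1 and 3 and KO LPS libraries 1 and 3. The fit of the 6 LPS libraries alone ended the genotype calls of Lpar6 (adjusted p = 0.0769), Gpr183 (0.066), Mnt (0.105), Cxcr4 (0.188) and Fli1 (0.0524). Fits of the compared groups alone ended the differences of responses of Lpar6 (0.13), Gpr183 (0.0801) and Slc46a3 (0.0795) and the KO response of Slc46a3 (0.17). That KO response also ended without the libraries rich in Rn45s (0.0638) and over library totals (0.0635). With libraries numbered 1 and 2 only, the differences of responses of Slc46a3 (0.0965) and Zfp874a (0.157) ended.

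Of 25 genes of homeostatic microglia 3 were higher and 1 lower in KO cells, against 2.97% and 6.33% of all genes tested. Their median was 0.06, and 0 were called in the difference of responses. With a replicate block for the library number 5 were higher and 3 lower. Gpr34, a lysophosphatidylserine receptor gene, held 28.5, 33.0 and 31.6 CPM in WT and 58.0, 72.9 and 50.4 CPM in KO cells and differed by 0.96 ± 0.25. Mef2c, a transcription factor of microglia, was higher by 0.80 ± 0.23, and the complement gene C1qa was lower (-0.55 ± 0.17). All 3 calls ended when single libraries were left out, namely WT LPS 1 or KO LPS 2 for Gpr34, WT LPS 1 or 2 or KO LPS 1 or 3 for Mef2c, and WT LPS 1 or 2 or KO LPS 2 or 3 for C1qa (adjusted p up to 0.0952, 0.167 and 0.183). They also ended in a fit of the 6 LPS libraries alone (adjusted p = 0.0512, 0.0774 and 0.236), where 0 of the 25 genes were called. The random effect in limma voom ended those of Gpr34 (0.133) and Mef2c (0.167) and left 1 higher and 1 lower gene. The call of Gpr34 ended without the libraries rich in Rn45s (0.0889), and that of C1qa over library totals (0.172) and without the filter on low counts (0.0821). Immediate early genes, which respond within minutes in other settings, were lower in 3 and higher in 2 of 26 cases, and lower in 5 and higher in 4 with a block for the library number. Leaving out WT LPS library 1 or 2 left 1 of the 5, and a fit of the 6 LPS libraries alone left 0.

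Lysosome and phagocytosis genes were called in 0 of 27 cases, sterol genes in 1 of 24 (lower) and cell cycle genes in 0 of 27, with medians of 0.03, 0.14 and -0.09. By DESeq2 1 lysosome gene was higher and 5 were lower. The summed level of the cell cycle genes was lowest in KO library 3, at 604 CPM untreated and 553 CPM with LPS, against 1329 to 2629 CPM in the other 10 libraries. Its part in the results was not tested. With libraries numbered 1 and 2 only, a choice made after seeing these values, 1996 genes differed between the genotypes (740 higher and 1256 lower).

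The labelled cell type was checked with marker lists. All 11 markers of microglia and macrophages matched in the table passed the filter, summed to 9964 to 11418 CPM over the 12 libraries, and held 0 called genes. Astrocyte markers (10 tested) summed to 16.4 to 40.3 CPM in WT and 11.7 to 26.7 CPM in KO cells with LPS, and neuron markers (10 tested) to 7.68 to 34.2 and 5.09 to 90.3 CPM. Both lists overlapped between the genotypes and held 0 called genes. Oligodendrocyte lineage markers (13 tested) summed to 256.5 to 449 CPM in WT and 198.0 to 254 CPM in KO cells with LPS, which do not overlap. These sums overlapped in untreated cells, at 225 to 435 and 184 to 247 CPM. Of the 13 genes 1 was called lower, against 6.33% of all genes tested. In 1 of the 13 every WT library with LPS lay above every KO library, against 1521 of all 13294 genes. Vascular and fibroblast markers (4 of 12 tested) summed to 12.7 to 17.9 CPM in WT and 4.53 to 8.95 CPM in KO cells with LPS. Their untreated sums overlapped, at 4.47 to 10.5 CPM in WT and 5.82 to 9.82 CPM in KO cells. Of the 4 tested 1 was called lower. Among those not tested, counts in the 12 libraries together ran from 0 for Cldn5 and Lum to 44 for Col1a1. The endothelial marker Cdh5 was tested and held 76 counts in the WT and 30 in the KO libraries with LPS, a difference that edgeR did not call (adjusted p = 0.0809). Of 12 markers of other leukocytes 6 were matched, with at most 29 counts in the 12 libraries together and none tested. The part of these lists in the results was not tested.

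The genotype difference at LPS 0.1 ng/ml was set against that at 10 ng/ml, which used other libraries. The higher dose brought a genotype difference in 2114 genes (15.9%), 1070 higher (8.05%) and 1044 lower (7.85%) in KO cells (3453 and 649 over library totals without scaling factors), and 674 genes (5.07%) differed between the doses in their genotype difference. Of these 419 (3.15%) were lower and 255 (1.92%) higher at 0.1 ng/ml relative to 10 ng/ml (663 and 172 without scaling factors). With a replicate block for the library number the counts were 3336 and 1181. Without KO LPS 10 ng/ml library 3 the 2114 genes were 1300, and without WT LPS 0.1 ng/ml library 1 the 674 were 439. At 10 ng/ml 34 of 48 interferon-stimulated genes were lower in KO cells, with a median of -1.71 against -3.24 at 0.1 ng/ml, and 15 of the 48 were called lower in the comparison of the doses. For NF-kB genes the count was 3 of 28 at 10 ng/ml, with a median of -0.30 against -1.14, and 13 were called lower in the comparison of the doses.

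**Figure D5:**
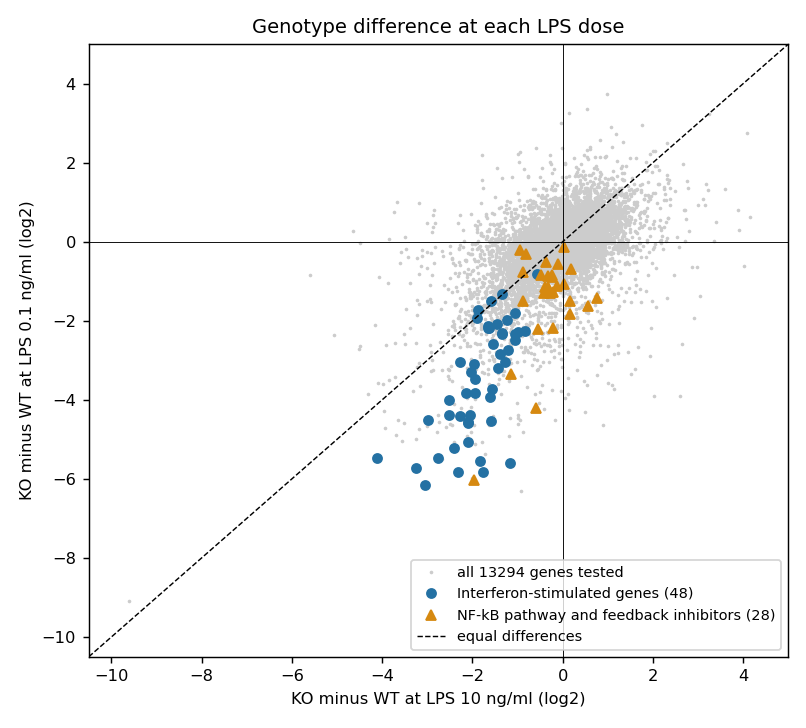
KO minus WT (log2) at LPS 10 ng/ml (horizontal axis) and at 0.1 ng/ml (vertical axis) for the 13294 genes tested, with interferon-stimulated genes as blue circles and NF-kB genes as orange triangles. The interferon-stimulated genes have medians of -1.71 and -3.24 and the NF-kB genes of -0.30 and -1.14 at the 2 doses.

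Tnf, the cytokine described above, held 7399, 6162 and 6377 CPM in WT and 6927, 5035 and 6860.1 CPM in KO cells at 10 ng/ml, which overlap. Its genotype difference at 0.1 ng/ml less that at 10 ng/ml was -2.74 ± 0.61 (adjusted p = 0.0108), and the same quantity was called lower for Il1b (-3.03 ± 0.59), Nlrp3 (-2.83 ± 0.38) and Cxcl1 (-4.32 ± 0.85). Cxcl10 held 13768, 11005 and 15304 CPM in WT and 5180.3, 3720.3 and 1155 CPM in KO cells at 10 ng/ml, without overlap. KO cells differed from WT cells by -1.99 ± 0.53 at that dose (adjusted p = 0.0143), a call that ended without KO LPS 10 ng/ml library 3 (adjusted p = 0.0689), and the doses differed by -4.08 ± 0.75. Gbp5 differed by -1.82 ± 0.41 at 10 ng/ml, and the doses differed by -3.72 ± 0.59. The receptor gene Lpar6 held 4.79, 5.83 and 5.23 CPM in WT and 5.46, 4.69 and 5.49 CPM in KO cells at 10 ng/ml, low in all 6 libraries, and the doses differed by 2.40 ± 0.44. In a fit of the compared groups alone the dose differences of Tnf (adjusted p = 0.0534) and Il1b (0.0607) ended, as did the call of Cxcl10 at 10 ng/ml (0.0928). With the random effect in limma voom the calls at 10 ng/ml ended for Cxcl10 (adjusted p = 0.0505) and Gbp5 (0.0548).

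Irf8, a transcription factor that specifies microglia, went the other way. It held 248, 267 and 217 CPM in WT and 276, 233 and 264 CPM in KO cells at 0.1 ng/ml, which overlap. At 10 ng/ml it held 1895, 2141 and 1534 CPM in WT and 147, 109 and 132 CPM in KO cells, a difference of -3.84 ± 0.16 (adjusted p = 4.5e-11). The doses differed by 3.92 ± 0.21 (adjusted p = 3.6e-09). Adm, which encodes the vasodilator peptide adrenomedullin, held 11.9, 7.96 and 1.41 CPM in WT and 0.897, 0.689 and 0.458 CPM in KO cells at 0.1 ng/ml. At 10 ng/ml the order was the opposite, with 39.2, 28.4 and 24.6 CPM in WT and 129, 66.9 and 65.8 CPM in KO cells. That difference at 10 ng/ml was not called by edgeR (adjusted p = 0.0508), while the doses differed by -4.86 ± 0.77 (adjusted p = 0.00107).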

How the data were processed

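RNA-seq of 24 libraries in 8 groups of 3 was deposited as a table of counts per gene, with normalized values beside them. Per the submitters' processing notes the mouse build was mm10 and the tools named were Bowtie2 2.1.0, HTSeq 0.5.4, DESeq, SAMtools 0.1.19, CASAVA 1.8.2 and FastQC 0.10.0. The deposited counts are whole reads per gene, and the deposited normalized values, a signal scaled by the authors, entered 1 alternative only. Strand setting and annotation are not given in the sources used here, so reads of overlapping genes cannot be told apart.

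From the counts, genes were kept with edgeR's filter (minimum count 10, minimum total 15), which left 13294 of 18919. edgeR 4.0.16 in R 4.3.3 was fitted to all 24 libraries with TMM factors and 8 group means, with 16 residual degrees of freedom and robust quasi-likelihood tests. P-values were adjusted by Benjamini-Hochberg over all tested genes in each comparison, at a threshold of 0.05. The fit was tested on simulated counts with known changes. Those counts were drawn independently for each library, so the simulation cannot show how the fit behaves when libraries deviate together.

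Library totals were 14939019 to 22143774. P-values rest on the spread between the 3 libraries of a group, pooled over the 8 groups. The main fit took all 24 libraries as independent. Those of 1 genotype and number were not, with an estimated correlation of 0.698 in limma voom. The 16 residual degrees of freedom thus overstate the independent units behind a genotype contrast. Same-numbered libraries of 1 genotype deviated together from their group means (r of 0.788 to 0.969 over 9581 genes). Across genotypes same-numbered libraries reached 0.225 to 0.895 and differently numbered ones up to 0.765, so that only number 1 stood apart: WT untreated library 3 correlated at 0.760 with KO untreated library 2 and at 0.354 with KO untreated library 3. The labels number the libraries alike but do not say what a number shares, so the pairing comes from the data and is clear within a genotype, which is what the nested block uses.

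The gene lists, the members and the tests were chosen with earlier results of these data known. Genes are named by a rule: 8 genes always, the 15 largest called changes in each direction with at least 5 CPM and no overlap, the 15 largest rises and 5 largest falls in KO cells, up to 5 called and 3 uncalled members of each list, and the 5 largest in each direction between the doses. Cldn5, Lum, Col1a1, Tlr4, Ly96, Ccl4 and Rn45s were named outside the rule after their values were seen. Some genes that the rule names are not reported here.

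Alternatives were DESeq2 1.42.0, limma 3.58.1 on log2 of the deposited normalized values plus 1 and with voom, other scaling and filters, replicate blocks, fits of the compared groups alone, Rn45s removed, and libraries left out.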

Additional observations from a re-analysis of the deposited data

Results flagged for a closer look

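The effect of LPS 0.1 ng/ml differed between the genotypes by the test of the difference of responses in 305 genes. The effect of genotype differed between the LPS doses by the test of that difference in 674 genes. Both tests were edgeR contrasts over all genes.

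Genes named in the report whose response was smaller in KO cells, as log2 differences of responses, were Rsad2 (-6.29 ± 0.68), Cxcl10 (-6.27 ± 0.79), Socs1 (-6.20 ± 0.98), Ifit1 (-5.94 ± 0.69), Mx1 (-5.81 ± 0.88), Gbp5 (-5.44 ± 0.62), Il6 (-5.38 ± 0.98), Il12b (-5.12 ± 0.87), Il27 (-4.87 ± 0.61), Cd69 (-4.41 ± 0.56), Ccl5 (-4.39 ± 0.81), Ptgs2 (-3.74 ± 0.65), Cd274 (-3.47 ± 0.41), Irf1 (-3.27 ± 0.39), Nod2 (-3.19 ± 0.49), Stat2 (-2.92 ± 0.43), Tnf (-2.64 ± 0.61), Il1b (-2.47 ± 0.59), Tap1 (-2.33 ± 0.36), Tlr3 (-2.19 ± 0.46), Tnfaip2 (-2.09 ± 0.32), Nlrp3 (-2.03 ± 0.38), Icam1 (-1.72 ± 0.42) and Myd88 (-1.53 ± 0.26). The fall with LPS was smaller in KO cells for Gpr183 (2.03 ± 0.43), Lpar6 (1.91 ± 0.42), Zfp874a (1.29 ± 0.27), Per1 (1.10 ± 0.26) and Slc46a3 (0.93 ± 0.21).

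Between the doses, the genotype difference at 0.1 ng/ml less that at 10 ng/ml was called for Adm (-4.86 ± 0.77), Cxcl1 (-4.32 ± 0.85), Cxcl10 (-4.08 ± 0.75), Gbp5 (-3.72 ± 0.59), Il1b (-3.03 ± 0.59), Nlrp3 (-2.83 ± 0.38), Tnf (-2.74 ± 0.61), Lpar6 (2.40 ± 0.44) and Irf8 (3.92 ± 0.21). Groups of 3 libraries were not tested for single outlying libraries.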

How the results depend on the processing

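Other scaling by RLE factors, other filters, removal of Rn45s and limma on the deposited values kept the totals of called genes within 1.5 times, except as given here, and no direction of a gene value printed in the report was reversed under any alternative run. By direction, the 25 genes higher in the difference of responses were 16 without the filter and 38 with limma on the deposited values, which also gave 3 falls in the KO response in place of 1. With a replicate block for the library number the counts were 2507 between the genotypes at LPS 0.1 ng/ml, 564 in the difference of responses, 3152 in WT and 190 in KO responses, 19 untreated, 3336 at 10 ng/ml and 1181 between the doses. The nested replicate block gave 1780, 5517 and 515 in the difference of responses, the WT and the KO response. The number within genotype as a random effect (limma voom) gave 756 at LPS 0.1 ng/ml and 1702 in the difference of responses. In that run 5146 genes were called in the WT response, 502 in the KO response and 2315 between the doses. Fits of the compared groups alone gave 179, 1357, 45, 0, 645 and 286 at LPS 0.1 ng/ml, in the WT and KO responses, untreated, at 10 ng/ml and between the doses, with fewer libraries to estimate the spread. DESeq2 gave 1856 at LPS 0.1 ng/ml, 594 in the difference of responses, 190 in the KO response and 2 untreated. Library totals without scaling factors gave 4102 at 10 ng/ml, with the median of all genes moved by 0.32 (log2). Without the libraries rich in Rn45s 483 genes differed in response, and with libraries numbered 1 and 2 only, chosen after seeing the data, 484 did and 1996 differed at LPS 0.1 ng/ml. Leaving out 1 library gave 604 to 1934 at LPS 0.1 ng/ml, 180 to 624 in the difference of responses, 1317 to 2546 in the WT and 55 to 98 in the KO response, 1300 to 2210 at 10 ng/ml and 439 to 759 between the doses. For these counts the cause was not tested, beyond the number of libraries. Depth limits genes near the floor, such as Ifnb1 and Il6 in untreated cells.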
